A study of Mus musculus with 11 samples.

Results

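The insulin-like growth factor (IGF) axis was followed in mouse liver through 7 genes chosen by symbol: Igf1, Igfals, Igfbp1, Igfbp2, Igfbp3, Igfbp4 and Igfbp7. Each symbol matched 1 of the 31053 genes in the deposited matrices, and all 7 passed the low-count filter and were among the 14821 genes tested. Spatial RNA was measured with Visium, which captures polyadenylated RNA of a frozen section on a grid of barcoded spots wider than a cell, so that every spot mixes several cells. The 11 sections comprised 3 from uninjured liver at 0 h (named 2, 3 and 4), 2 at 24 h, 2 at 36 h and 4 at 48 h after APAP (named A to D). APAP is paracetamol, an overdose of which destroys pericentral hepatocytes, and the time course was made to follow the liver as it is injured and repaired. No genotype, strain, sex or age is given in the labels. The study's methods name C57BL/6JCrl and reporter strains and young adult mice, male unless stated otherwise, and give APAP by intraperitoneal injection after a fast. Whether the 0 h mice were fasted, and how long any mouse had fed before collection, are not given in the sources used here.

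IGF1 is a growth-promoting hormone that is made mostly by hepatocytes and carries much of the action of pituitary growth hormone. Growth hormone acts on the liver through its receptor and the transcription factor STAT5. In blood, IGF1 is held by IGF binding proteins, chiefly IGFBP3, and the acid-labile subunit encoded by Igfals closes a long-lived complex around them. IGFBP1 is set by feeding, since insulin shuts its gene off through FOXO1, and it also rises under cell stress. IGFBP2 and IGFBP4 are further hepatic binding proteins, whereas IGFBP7 binds IGFs weakly and is known from vessels and stroma. Hepatocytes themselves hold little of the type 1 IGF receptor, so that most IGF1 leaving the liver acts elsewhere.

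The sections held 31292663 to 67045372 UMIs (unique molecules counted) in 1490 to 3466 passing spots. The labelled tissue was borne out by a list of 7 hepatocyte markers, whose summed level was 119154 to 124620 CPM at 0 h and 85325 to 113945 CPM in injured sections, with no marker at 0. CPM (counts of UMIs scaled to a common library size) was taken after scaling by the trimmed mean of M values (TMM), which centres the bulk of the genes. Where values are given as UMI share, the same unit was taken without TMM. Its factors were 0.783 to 0.811 at 0 h and 0.983 to 1.17 after APAP, and the leading 20 genes made up 29.04% to 30.2% of the uninjured libraries and 22.8% to 29.4% of the injured ones. Dividing by total UMIs instead raised the median of all genes against 0 h by 0.33, 0.44 and 0.53 on the log2 scale at 24, 36 and 48 h, so every change is given relative to TMM, under which that median lay at 0.047, 0.048 and 0.011. According to the study's methods a single mouse liver was used per time point for this assay. Read that way, a p-value measures only how sections of the same liver vary, and the animal, its handling and the time after APAP cannot be told apart.

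Against 0 h, 5 of the 7 genes fell at 24 h, 2 fell at 36 h, and 48 h had 4 lower and 1 higher. These counts are from edgeR's quasi-likelihood test at an adjusted p under 0.05. The same rule called 41.7% of all genes tested at 24 h (18.6% lower and 23.1% higher), 29.2% at 36 h (12.4% lower and 16.8% higher) and 44.2% at 48 h (20.9% lower and 23.3% higher), so the count at 36 h was close to the share over all genes. The median log2 fold change of the 7 genes was -0.58 at 24 h, -0.39 at 36 h and -0.48 at 48 h. The 3 comparisons share the same 0 h sections. From 24 to 36 h 2 genes rose, where 15.6% of all genes were called, 7.04% higher and 8.58% lower. From 36 to 48 h no gene was called by edgeR (3.05% of all genes were, 1.62% higher and 1.43% lower), although 3 had an unadjusted p under 0.05 and DESeq2 called 2.

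**Figure D1:**
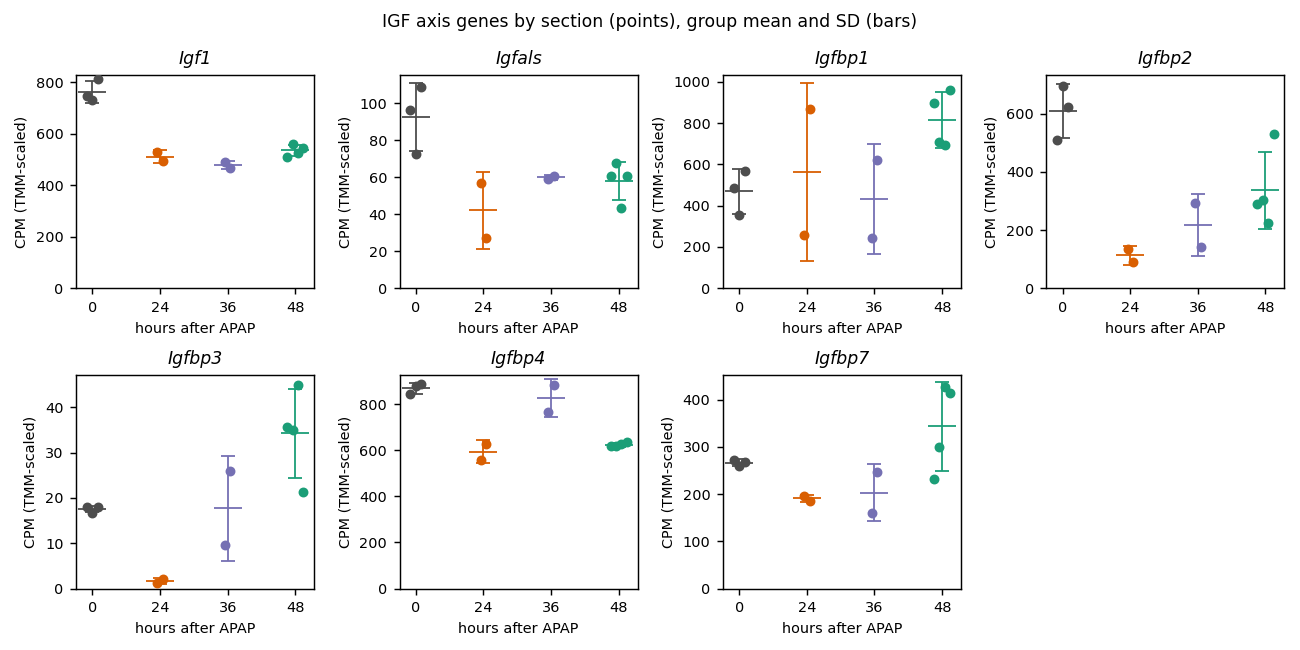
Level of each gene in CPM (vertical axis, linear from 0) against hours after APAP, with a point per section and a bar for the group mean with its SD (n = 3, 2, 2 and 4). Igf1 and Igfals lie below the 0 h sections at every injured time, Igfbp3 nearly disappears at 24 h, and Igfbp1 spreads widely at 24 and 36 h.

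Igf1 (ENSMUSG00000020053; GRCm38 chromosome 10, 87858265 to 87937042, plus strand) encodes the ligand. It measured 748, 732 and 813 CPM in the 0 h sections, 529 and 494 CPM at 24 h, 489 and 468 CPM at 36 h, and 511, 561, 526 and 547 CPM at 48 h. All 8 injured sections lay below all 3 uninjured sections, and the injured groups lay close to one another. The log2 fold change was -0.58 ± 0.105 (SE; adjusted p = 0.00153, edgeR) at 24 h, -0.68 ± 0.105 (adjusted p = 0.00168) at 36 h and -0.51 ± 0.0859 (adjusted p = 0.000884) at 48 h. In all leave-one-out fits at 48 h the fall of Igf1 was called (adjusted p at most 0.00564). The level thus stood at 0.669, 0.626 and 0.701 of that at 0 h. With total-count scaling the fall was not called at any time and the sign turned at 48 h (-0.25, -0.24 and 0.016, adjusted p = 0.0712, 0.0876 and 0.881). As UMI share Igf1 stood at 592, 593 and 637 at 0 h and at 583 to 639 at 48 h, so its fall at 48 h was relative to the bulk of genes, not to total RNA. In bulk sums of this kind, fewer hepatocytes and less RNA per hepatocyte cannot be told apart.

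Igfals (ENSMUSG00000046070; chromosome 17, 24865997 to 24882010, plus strand) encodes the acid-labile subunit. Its levels were 96.3, 72.8 and 109 CPM at 0 h, 56.8 and 27.4 CPM at 24 h, 59.1 and 60.8 CPM at 36 h, and 60.8, 67.7, 43.6 and 60.6 CPM at 48 h. Every injured section again lay below every 0 h section. The log2 fold change was -1.14 ± 0.294 (adjusted p = 0.0109, edgeR) at 24 h, -0.63 ± 0.288 (adjusted p = 0.125) at 36 h and -0.67 ± 0.235 (adjusted p = 0.0393) at 48 h. Section 24 h B was the lowest of the 11, and without it the 24 h difference was -0.71 with adjusted p = 0.0738. With total-count scaling the 24 h fall was kept (-0.80, adjusted p = 0.0389), whereas at 48 h the difference was -0.14 (adjusted p = 0.604). The 48 h call was also lost when any 1 of 0 h 2, 0 h 4, 48 h A, 48 h C or 48 h D was left out, with adjusted p up to 0.124.

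Igfbp1 (ENSMUSG00000020429; chromosome 11, 7197782 to 7202546, plus strand) and Igfbp3 (ENSMUSG00000020427; chromosome 11, 7206086 to 7213923, minus strand) are neighbours, with 3539 bp between their annotated ends. Their upstream sequences are shown because the pair followed different courses although adjacent. That of Igfals is shown because it fell with Igf1, as Igfbp2 and Igfbp4 also did at 24 and 48 h. Each run is the 250 bases before a RefSeq transcript start in GRCm38.p6, read 5′ to 3′ on the gene's strand, at chr11:7197537-7197786 (plus) for Igfbp1, chr11:7213924-7214173 (minus) for Igfbp3 and chr17:24877981-24878230 (plus) for Igfals, where the window lies inside the gene body before 1 of 3 listed starts. Of the 3 Igfals windows the one with most matches is shown. Capitals mark matches to any of 3 motifs searched on both strands.
Igfbp1: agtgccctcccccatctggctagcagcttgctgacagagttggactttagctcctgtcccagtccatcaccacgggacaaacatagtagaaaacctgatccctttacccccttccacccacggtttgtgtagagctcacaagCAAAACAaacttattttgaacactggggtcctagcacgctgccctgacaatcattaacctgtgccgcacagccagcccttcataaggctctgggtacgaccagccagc
Igfbp3: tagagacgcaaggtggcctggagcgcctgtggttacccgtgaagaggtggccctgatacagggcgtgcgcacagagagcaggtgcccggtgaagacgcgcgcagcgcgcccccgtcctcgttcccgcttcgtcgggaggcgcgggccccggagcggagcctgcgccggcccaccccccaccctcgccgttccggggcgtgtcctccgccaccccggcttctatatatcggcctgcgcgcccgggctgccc
Igfals: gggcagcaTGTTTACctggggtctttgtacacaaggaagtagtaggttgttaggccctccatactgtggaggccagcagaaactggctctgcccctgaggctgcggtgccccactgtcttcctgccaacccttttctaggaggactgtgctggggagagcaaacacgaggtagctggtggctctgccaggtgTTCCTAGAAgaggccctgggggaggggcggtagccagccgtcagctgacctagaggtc

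The insulin response letters CAAAACA, which read TGTTTTG on the other strand, occurred in the Igfbp1 window, starting 108 bases before the transcript start. They occurred in 5.56% of the 32851 listed mouse promoter windows of the same length. The Igfals window held the FOXO letters TGTTTAC, which read GTAAACA on the other strand, found in 3.17% of windows, and the STAT5 letters TTCNNNGAA, found in 7.02%. Of the other Igfals windows 1 held the STAT5 letters alone and 1 held none of the motifs, and the shares given are per single window. None of the 3 motifs occurred in the Igfbp3 window, nor in any window of Igf1, Igfbp2, Igfbp4 or Igfbp7. In the windows searched, the genes that fell with Igf1 thus did not share these letters, and the Igf1 window did not hold them. That Igf1 window lies inside the gene body, and all 250 of its bases are exonic. It therefore does not show the sequence before the annotated start of Igf1. A match of letters is a description of the sequence and no evidence of binding.

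Igfbp1 encodes the binding protein under insulin control. It measured 485, 355 and 571 CPM at 0 h, 259 and 867 CPM at 24 h, 243 and 623 CPM at 36 h, and 896, 708, 696 and 962 CPM at 48 h. At 24 and 36 h 1 section lay below and 1 above all uninjured sections, whereas all 4 sections at 48 h lay above them. The log2 fold changes of 0.26 ± 0.480, -0.12 ± 0.484 and 0.79 ± 0.411 were not called by edgeR (adjusted p = 0.696, 0.874 and 0.142). At 48 h the 95% confidence interval ran from -0.12 to 1.71. The 48 h difference was called in a fit to the 0 h and 48 h sections alone (adjusted p = 0.00526) and with total-count scaling (1.32, adjusted p = 0.0156). Under that scaling 8920 of the 14821 genes tested were called higher at 48 h.

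Igfbp2 (ENSMUSG00000039323; chromosome 1, 72824503 to 72852474, plus strand) encodes a hepatic binding protein of blood plasma. The uninjured sections held 511, 697 and 623 CPM. Levels fell to 136 and 90.4 CPM at 24 h and were 293 and 142 CPM at 36 h and 289.7, 304, 225 and 529.6 CPM at 48 h. The fall was deepest at 24 h and smaller at each later time, with 48 h D alone inside the 0 h range. The log2 fold change was -2.43 ± 0.419 (adjusted p = 0.00135, edgeR) at 24 h, -1.49 ± 0.400 (adjusted p = 0.0206) at 36 h and -0.86 ± 0.315 (adjusted p = 0.0485) at 48 h. The 24 h fall was called with total-count scaling too (-2.10, adjusted p = 0.00220). The 36 h fall was not (-1.04, adjusted p = 0.0515), nor was it without 0 h 3 or 36 h B (-1.38 and -1.06, adjusted p = 0.0557 and 0.141). The 48 h difference lost its call when any 1 of 6 of the 7 sections compared was left out, the exception being 48 h D, and with total-count scaling (-0.33, adjusted p = 0.379).

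Igfbp3 encodes the main carrier of IGF1 in blood, which in liver is known from non-parenchymal cells. It measured 17.9, 16.7 and 18.02 CPM at 0 h and 1.18 and 2.17 CPM at 24 h, from 55 and 68 UMIs. It was 9.56 and 25.9 CPM at 36 h and 35.7, 35.1, 45.0 and 21.2 CPM at 48 h. The order was therefore 24 h lowest, 36 h on both sides of 0 h, and 48 h highest, with all 4 sections above all uninjured sections. The log2 fold change was -3.42 ± 0.492 (adjusted p = 0.000528, edgeR) at 24 h, leaving 0.0934 of the 0 h level. It was 0.014 ± 0.396 (adjusted p = 0.984) at 36 h and 0.96 ± 0.335 (adjusted p = 0.0391) at 48 h. From 24 to 36 h it rose by 3.43 ± 0.511 on the log2 scale (adjusted p = 0.00531), the widest change of the 7 genes between neighbouring times, though not called in a fit to those 4 sections alone (adjusted p = 0.133). The fall at 24 h was called under every alternative run, whereas the rise at 48 h lost its call without any 1 of 6 of the 7 sections, 48 h D again being the exception. Summed endothelial markers were 247 to 283 CPM at 0 h and 210.1 to 228 CPM at 24 h, all 7 detected. Their part in the 24 h fall was not tested.

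Igfbp4 (ENSMUSG00000017493; chromosome 11, 99041244 to 99054392, plus strand) encodes a small binding protein that mostly holds IGFs away from their receptor. It measured 843, 879 and 887 CPM at 0 h, 559 and 629 CPM at 24 h, 769 and 886 CPM at 36 h, and 618, 618, 629.6 and 635 CPM at 48 h. The 24 h and 48 h sections lay below all uninjured sections, and between them the 36 h sections stood higher. The log2 fold change was -0.55 ± 0.109 (adjusted p = 0.00250, edgeR) at 24 h, -0.073 ± 0.107 (adjusted p = 0.639) at 36 h and -0.48 ± 0.0891 (adjusted p = 0.00163) at 48 h. The step from 24 to 36 h was 0.48 ± 0.118 (adjusted p = 0.0245), a call lost without 24 h A, 24 h B or 36 h B (adjusted p up to 0.149), and the step back from 36 to 48 h was -0.40 ± 0.100 (adjusted p = 0.0566). With total-count scaling the sign turned at 36 h (0.36, adjusted p = 0.0136) and at 48 h (0.050, adjusted p = 0.622), and the 24 h fall was -0.23 (adjusted p = 0.0925). Under that scaling 7064 of the 14821 genes tested were called higher at 36 h.

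Igfbp7 (ENSMUSG00000036256; chromosome 5, 77349240 to 77408041, minus strand) measured 272, 258 and 268 CPM at 0 h, 196 and 185 CPM at 24 h, 159.9 and 246 CPM at 36 h, and 231, 299, 427 and 415 CPM at 48 h. The 24 h and 36 h sections lay below the uninjured ones, whereas 3 of the 4 sections at 48 h lay above. No comparison with 0 h was called (log2 fold changes -0.48, -0.39 and 0.37, adjusted p = 0.154, 0.264 and 0.183, edgeR). The 24 h fall was called in a fit to the 0 h and 24 h sections alone (-0.52, adjusted p = 0.00308), and the 48 h difference without 48 h A (0.52, adjusted p = 0.0400). With total-count scaling the 48 h difference was 0.90 (adjusted p = 0.00365), where 8920 of the 14821 genes tested were called higher. Summed mesenchyme markers were 250 to 286 CPM at 0 h and 674 to 1469 CPM at 48 h. Mononuclear phagocyte markers were 409 to 434 and 722 to 1327 CPM, with every marker of both lists detected. Igfbp7 did not follow them in every section. In 48 h A both sums (674 and 722 CPM) lay above 0 h while Igfbp7 lay below. At 24 h phagocyte markers stood higher, at 553 to 595 CPM, while Igfbp7 lay below 0 h. The part of either list in the level of Igfbp7 was not tested.

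**Figure D2:**
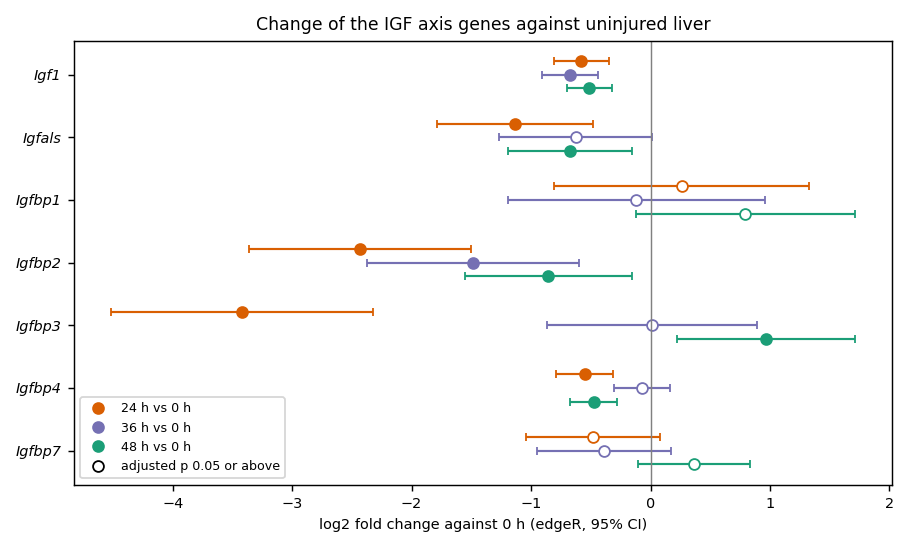
Log2 fold change of each gene against 0 h (horizontal axis) at 24, 36 and 48 h, with the 95% confidence interval from edgeR and open circles where the adjusted p is 0.05 or above. Igf1 falls by a like amount at each time, the interval of Igfbp2 moves back towards 0, and Igfbp3 passes from -3.42 at 24 h to 0.96 at 48 h.

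The rest of the axis was read from a list of 32 further genes, of which 28 were tested. The other 4 held too few UMIs over all sections, namely the ligand Igf2 with 13, Igfbpl1 with 6, and the binding protein proteases Pappa with 27 and Pappa2 with 26. Of the 28, 7 were called at 24 h (1 higher, 6 lower), 10 at 36 h (2 higher, 8 lower) and 12 at 48 h (4 higher, 8 lower), to be read against the shares of all genes given above. The median log2 fold change over the 28 was -0.60, 0.049 and -0.35. The alternatives of processing were run for the 7 genes alone. No call in this list was therefore checked against total-count scaling or the loss of a section.

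Upstream of Igf1, 7 genes of growth hormone input were listed. Of these, 2 fell at 24 h, 4 fell and 1 rose at 36 h, and 2 fell at 48 h. Over all genes 18.6%, 12.4% and 20.9% were called lower at these times, and 16.8% higher at 36 h. Ghr, the growth hormone receptor, fell at every time, from a mean of 302 CPM at 0 h (range 300.4 to 304) to 71.7 CPM (57.3 and 86.2) at 24 h, 135 CPM (118 and 152) at 36 h and 119 CPM (99.2 to 142) at 48 h. The log2 fold changes were -2.07 ± 0.214, -1.16 ± 0.205 and -1.34 ± 0.164 (adjusted p = 7.52e-05, 0.00293 and 0.00015, edgeR), so no injured section came near the uninjured range. Stat5b, which carries the signal to the nucleus, fell from 62.7 to 33.6, 31.9 and 37.0 CPM (log2 fold change -0.90, -0.97 and -0.76, adjusted p = 0.0287, 0.0299 and 0.0222). Cish, a feedback inhibitor that STAT5 induces, held 42.3 CPM at 0 h (31.5 to 56.0), 36.7 CPM at 24 h, 3.92 CPM at 36 h and 20.6 CPM at 48 h (7.57 to 36.7). It was called at 36 h alone (-3.43 ± 0.709, adjusted p = 0.0073). The calls at 36 h were completed by Stat5a, which fell from 13.4 to 8.60 CPM, and by Bcl6, a repressor that competes for STAT5 sites, which rose from 5.79 to 29.1 CPM (9.42 and 48.8). Both were named after their values were seen.

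Of the 3 receptors for IGFs and insulin, none was called at 24 or 36 h by edgeR and 2 were called at 48 h, where 44.2% of all genes were. Igf1r, the signalling receptor, held 1.94 CPM at 0 h and 2.15, 2.82 and 2.79 CPM later, with no call (adjusted p = 0.718, 0.185 and 0.107). Igf2r, which clears IGF2, was higher at 48 h (10.6 to 14.5 CPM, log2 fold change 0.45 ± 0.165, adjusted p = 0.0472). Insr, the insulin receptor, was lower at 48 h (40.3 to 31.1 CPM, -0.37 ± 0.100, adjusted p = 0.0120). This fall was smaller than the 0.53 by which total-count scaling raised the median of all genes at 48 h.

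Among 6 genes for binding protein proteases and their inhibitors, 4 were tested and 1 was called at each time, always higher. Over all genes 23.1%, 16.8% and 23.3% were called higher. Stc1, an inhibitor of the PAPP-A proteases, was called at 24 h (log2 fold change 4.33) and at 36 h (2.72), but from 5 UMIs over the 0 h sections and 60 over the 24 h sections. Htra3, a protease reported to cleave binding proteins, rose from 1.62 to 8.33 CPM at 48 h (2.36 ± 0.512, adjusted p = 0.00432). Neither of the other listed binding proteins tested, Igfbp5 and Igfbp6, was called at any time, and both were named after their values were seen.

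Of 9 insulin and IGF signalling genes, 3 fell at 24 h, 3 fell at 36 h, and 4 fell and 2 rose at 48 h. Over all genes 18.6%, 12.4% and 20.9% were called lower at these times, and 23.3% higher at 48 h. Foxo3 fell at 24 h and 48 h (25.7 CPM at 0 h, 14.6 and 13.3 CPM, adjusted p = 0.00098 and 0.000114), with 22.0 CPM at 36 h. Irs2, an insulin receptor substrate that fasting raises, fell at 36 h (19.6 to 4.52 CPM, log2 fold change -2.11 ± 0.425, adjusted p = 0.00595). Grb10, an adaptor that damps receptor signalling, rose at 48 h (2.90 to 6.02 CPM, 1.07 ± 0.310, adjusted p = 0.0179). G6pc, the last enzyme of glucose output and a gene that fasting and FOXO1 raise, fell from 463 CPM to 49.2, 78.0 and 83.4 CPM (adjusted p = 0.0127, 0.0410 and 0.0103). It was the 1 gene called of 3 fasting-linked genes at each time, to be read against the same shares of all genes. Igfbp1, which answers to the same signals, was not called.

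**Figure D3:**
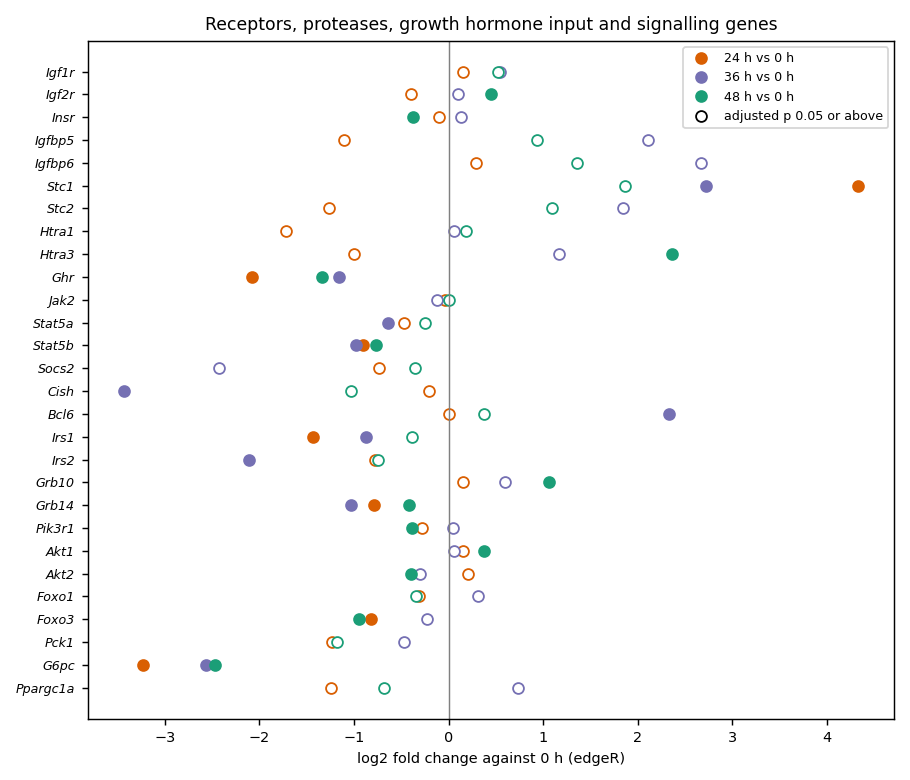
Log2 fold change against 0 h (horizontal axis) of the 28 tested genes of receptors, binding proteins, proteases, growth hormone input and signalling, with filled circles for an adjusted p under 0.05 in edgeR. Ghr, Stat5b and G6pc are filled on the left at all 3 times, and Igf1r is open throughout.

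Position in the lobule was read next, because hepatocytes, which make several but not all of these genes, differ from the portal to the central vein. Spots were ranked in each section by a central minus portal score over gene lists that hold none of the 7 genes, and the highest 1 in 3 of spots was compared with the lowest 1 in 3 with the section as a block. At 0 h 3 of the 7 genes were lower in central spots (17.4% of 13813 genes were called, 8.95% lower and 8.46% higher). After APAP 3 were lower and 2 higher (34.4% called, 18.6% lower and 15.7% higher). By time point, 3 were lower at 24 h (21.8% called, 12% lower and 9.81% higher) and the same 3, Igf1, Igfals and Igfbp4, at 36 h (10.7% called, 7.18% lower and 3.53% higher), while at 48 h these 3 were lower and Igfbp1 and Igfbp7 higher (30.5% called, 16.6% lower and 13.8% higher). The score is less a lobule axis after injury: central and portal scores correlated across spots at -0.65 to -0.57 in the uninjured sections and at -0.40 to 0.24 in the injured ones. Spots also take up stray RNA, since spots off the tissue held 10.7% to 24.9% of the UMIs, and such spread blurs any contrast between places.

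Igf1 was called lower in the central than in the portal class of spots at every time. At 48 h the central and portal scores correlated at -0.0059 to 0.24 across spots, so there the classes do not give a place in the lobule. Its uninjured sections held 813 to 875 CPM in portal and 618 to 709 CPM in central spots, and at 48 h the values were 618 to 663 and 443 to 497 CPM. The log2 difference, central minus portal, was -0.37 ± 0.0431 at 0 h (adjusted p = 1.68e-08, edgeR) and -0.50 ± 0.0286 after APAP (adjusted p = 2.00e-16). The change of this difference was -0.13 ± 0.0516 (adjusted p = 0.0832). Igf1 was lower in central than in portal spots in all 11 sections.

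Igfals sloped the same way, by -0.26 ± 0.0444 at 0 h (adjusted p = 2.72e-05) and by -0.48 ± 0.0344 after APAP (adjusted p = 7.3e-14). For Igfals the slope itself steepened, with a difference of -0.22 ± 0.0562 (adjusted p = 0.00422), in a test that called 19.2% of all genes (12% lower and 7.25% higher). Igfbp4 had no called slope at 0 h (-0.045 ± 0.0417, adjusted p = 0.550) and a portal one after APAP (-0.23 ± 0.0273, adjusted p = 1.01e-08), with a difference of -0.19 ± 0.0498 (adjusted p = 0.00540) that was lost without 0 h 4 (adjusted p = 0.0765). The portal slope of Igfbp4 after APAP was not called under total-count scaling (-0.054, adjusted p = 0.0660), and neither difference was (-0.097 and -0.066, adjusted p = 0.217 and 0.325).

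Igfbp1 ran the other way. In the uninjured sections it measured 469.8, 390.01 and 633 CPM in central spots, against 478, 309 and 504 CPM in portal ones. The pairs for the later sections A to D, at 48 h, were 1236 against 508, 899 against 478, 884 against 520.1 and 1046 against 897 CPM. All 4 sections at 48 h were thus higher in central spots, while at 24 h section A was lower there (229 against 298 CPM). The log2 difference was 0.21 ± 0.229 at 0 h (adjusted p = 0.644), -0.068 ± 0.286 at 24 h (adjusted p = 0.910), 0.78 ± 0.296 at 36 h (adjusted p = 0.172), 0.79 ± 0.196 at 48 h (adjusted p = 0.0183) and 0.50 ± 0.152 over the injured times (adjusted p = 0.0383). The change from 0 h, 0.29 with a 95% confidence interval from -0.36 to 0.93, was not called (adjusted p = 0.559). The value over the injured times was not called without 24 h A, 24 h B, 36 h A, 48 h B or 48 h C, with adjusted p from 0.0540 to 0.147.

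Igfbp3 was lower in central spots at 0 h (-0.76 ± 0.185, adjusted p = 0.0234), with 20.7 to 23.1 CPM in portal and 11.6 to 15.1 CPM in central spots, and lost that call without 0 h 2 or 0 h 3. After APAP its difference was -0.085 ± 0.261 (adjusted p = 0.843), and the change between the conditions was not called (adjusted p = 0.202). Igfbp7 was slightly higher in central spots after APAP (0.10 ± 0.0288, adjusted p = 0.00529). Its value at 0 h was close to this but not called (0.094 ± 0.0426, adjusted p = 0.139), and the change between the conditions was 0.0080 (adjusted p = 0.950). The 0 h value of Igfbp7 was called with total-count scaling (0.15, adjusted p = 0.0135, edgeR) and without 0 h 3. Igfbp2 had no called slope in either condition with TMM. Its values by time differed in sign, at 0.30 ± 0.108 at 24 h, -0.11 ± 0.0984 at 36 h and -0.18 ± 0.0633 at 48 h. None of these was called (adjusted p = 0.0753, 0.577 and 0.0517, edgeR). With total-count scaling Igfbp2 was called higher in central spots after APAP (0.18, adjusted p = 0.00467).

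**Figure D4:**
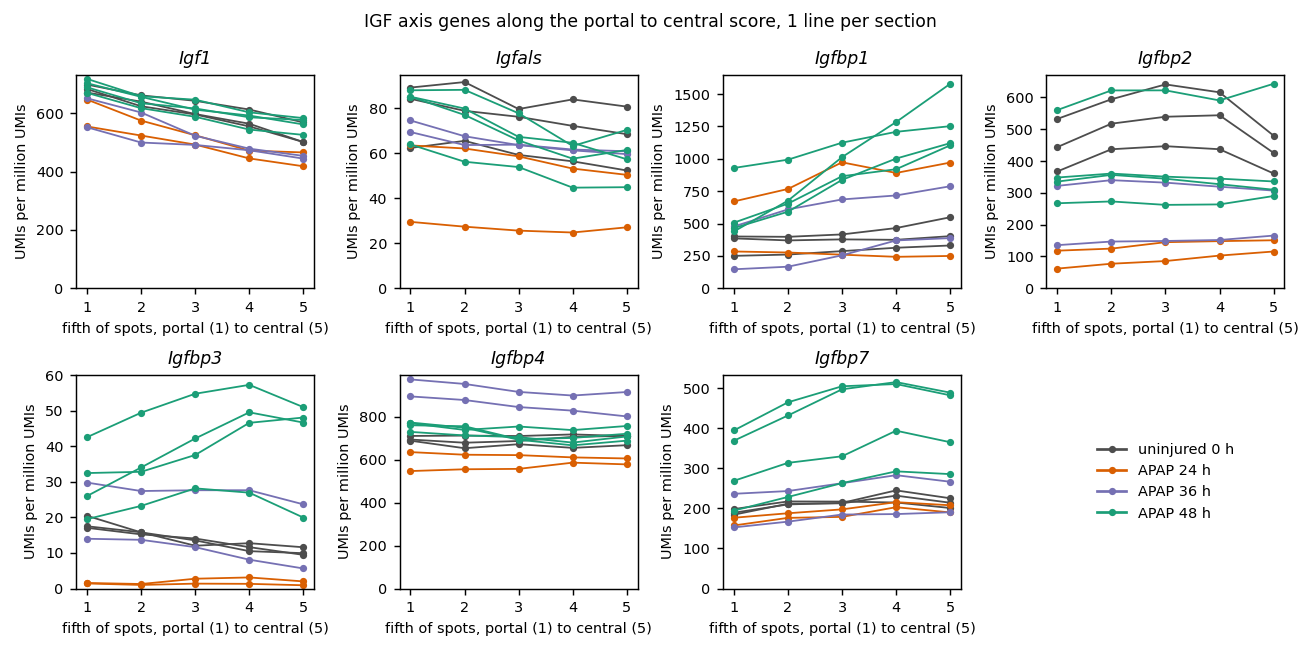
UMI share of each gene (vertical axis, from 0, in the unit of CPM without TMM) in 5 equal classes of spots from portal (1) to central (5), with a line per section coloured by group. Igf1 lines slope down in all groups, Igfbp1 lines at 48 h slope up from 438 to 1579 in section A and from 929 to 1252 in section D.

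Spots poor in hepatocyte transcripts were looked at next. Spots whose hepatocyte score lay under the 1st percentile of uninjured spots are named hepatocyte-low here, a rule that says nothing of why hepatocyte RNA is scarce there. Such spots made up 0.64% to 1.52% of spots at 0 h, 0.15% to 0.87% at 24 and 36 h and 1.21% to 5.67% at 48 h. No section at 24 or 36 h exceeded the uninjured range, and there the class does not mark injury. Section 48 h B (1.21%) lay inside that range too and 48 h D (1.57%) just above it, against 2.08% in 48 h A and 5.67% in 48 h C. They were compared with spots at least 3 steps away, in the 4 injured sections with at least 20 spots of each class (24 h A and 48 h A, C and D). All 7 genes were called in hepatocyte-low against far spots, where 54% of 12057 genes were, 5 lower and 2 higher (25.8% and 28.2% of all genes).

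Igf1, Igfals, Igfbp1, Igfbp2 and Igfbp4 were low there. The class was chosen for scarce hepatocyte transcripts, so a low value of a gene made in hepatocytes is largely set by that rule. The same holds for a high share of transcripts of other cells. Igfals fell most, from 81.7 to 28.2 CPM in 48 h D and from 71.5 to 47.5 CPM in 24 h A, with a log2 difference of -1.75 ± 0.175 (adjusted p = 1.57e-07, edgeR). Igfbp2 differed by -1.41 ± 0.181, Igfbp4 by -1.06 ± 0.141, Igf1 by -0.86 ± 0.0922 and Igfbp1 by -0.69 ± 0.174, with adjusted p from 3.62e-07 to 0.0028. With TMM computed over the spot classes, each of these genes was lower in the low than in the far spots of all 4 sections. As UMI share this did not hold throughout. Igfbp1 stood at 1034 in low spots against 764 to 1018 at 3 or more steps in 48 h A, and at 785 against 641 to 760.4 in 48 h C. In 24 h A Igfbp2 stood at 149 against 116 to 144, and Igfbp4 at 599.6 against 541 to 570.1. For Igfbp1 the call was lost without 48 h D (-0.44, adjusted p = 0.0735) and with total-count scaling (-0.21, adjusted p = 0.310).

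Igfbp7 and Igfbp3 were higher there. Igfbp7 held 522, 785 and 968 CPM in low spots of 48 h A, C and D against 285, 504 and 509 CPM in far spots, with a log2 difference of 0.71 ± 0.106 (adjusted p = 1.82e-05). Igfbp3 differed by 0.43 ± 0.128 (adjusted p = 0.00898), with 54.0, 63.6 and 51.3 against 42.5, 55.0 and 25.4 CPM in those sections. In 24 h A no Igfbp3 UMI was found in the 22 low spots, and without 48 h A or 48 h D the difference was not called (adjusted p = 0.0519 and 0.131).

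Spots that touch a hepatocyte-low spot formed a ring. Here Igf1 (-0.46 ± 0.0884), Igfals (-0.76 ± 0.119), Igfbp2 (-0.53 ± 0.161) and Igfbp4 (-0.41 ± 0.134) were lower than in far spots and Igfbp3 was higher (0.43 ± 0.104), with adjusted p from 0.000208 to 0.0274. Over all genes 29.2% were called, 14.7% lower and 14.5% higher. The 4 lower genes were thus between their low and far levels. Igfbp2 and Igfbp4 lost the call under total-count scaling and without 48 h A, C or D, and Igfbp3 without 48 h A, so that 2 to 6 genes were called when a section was left out.

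As UMI share, Igfbp1 was highest in this ring in all 4 sections at 48 h, among steps with at least 20 spots. Low spots were too few to count as a step in 48 h B (18), 36 h B (4) and 0 h 2 (14). In these sections the ring was compared only with steps further out. Section 48 h A held 1034 in low spots, 1607 in the ring, 1057 at 2 steps and 764 at 3 steps. The ring was also the highest step in 48 h B (1276, against 698 at 2 steps), 48 h C (1232, against 785 in low spots) and 48 h D (1202, against 569 in low spots and 1163 at 2 steps). In 24 h A it was not (217, against 307 at 2 steps). The order was not particular to 48 h, since the ring was the highest step in 36 h B (737, against 437 to 667 further out) and in the uninjured 0 h 2 (457, against 363 to 449 further out) as well. With TMM the ring held 1561 against 1085 CPM in far spots of 48 h A and 1222 against 819 CPM in 48 h C, but 1154 against 1237 CPM in 48 h D and 240.3 against 321 CPM in 24 h A. Over the 4 sections the ring difference was 0.16 ± 0.165 and not called (adjusted p = 0.514). With the threshold at the 5th percentile, where 7 sections had enough spots, it was 0.34 and called (adjusted p = 0.0221).

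**Figure D5:**
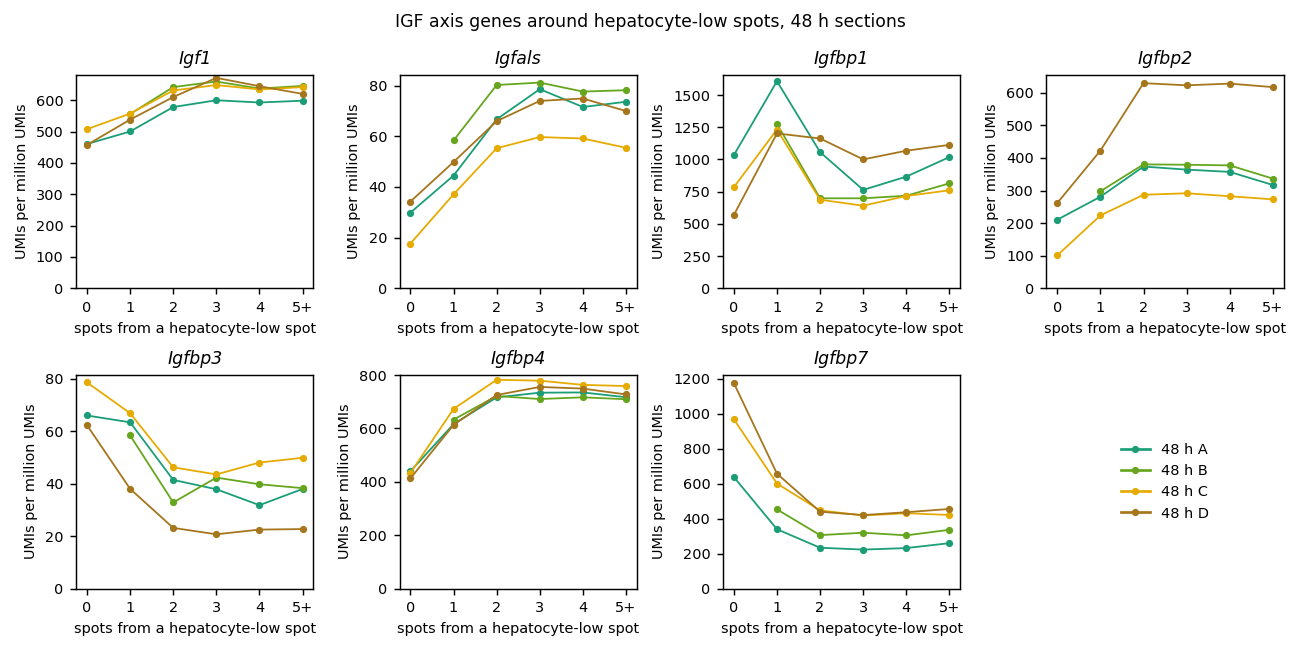
UMI share of each gene (vertical axis, from 0, in the unit of CPM without TMM) against steps on the spot grid from the nearest hepatocyte-low spot, for the 4 sections at 48 h. Steps with under 20 spots are left out. Igfals, Igfbp2 and Igfbp4 climb over the first 2 steps, Igfbp7 drops, and Igfbp1 is highest 1 step out in each section among the steps shown. Section 48 h B has no step for the low spots.

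The spread of Igfbp1 over spots was wide at 48 h. Spots were thinned to 2000 UMIs each so that depth did not enter, and the ratio of variance to mean over spots was taken, which is near 1 for counts that differ by sampling alone. For Igfbp1 it was 1.04 to 1.15 at 0 h, 1.096 and 1.73 at 24 h, 1.41 and 1.67 at 36 h, and 2.48, 2.11, 2.08 and 1.43 at 48 h, where the other 6 genes lay between 0.977 and 1.28. The ratio grows with a gene's level, and Igfbp1 had more UMIs per thinned spot (1.55 to 2.17) than the others (0.0426 to 1.48), so it does not rank the genes by evenness. The sections at 48 h were thus all above those at 0 h. Its count in a spot correlated with the mean of the touching spots at 0.07 to 0.15 at 0 h and at 0.19 to 0.32 at 48 h, values that rest on sparse counts. In 24 h B 1 spot held 311 Igfbp1 UMIs, against at most 45 in any uninjured spot.

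Spots rich in markers of other lineages were compared with the remaining spots, taking the top 10% by each list in every section. Igf1, Igfals, Igfbp2 and Igfbp4 were lower in the spots rich in markers of endothelium, mesenchyme, mononuclear phagocytes or cholangiocytes. Spots chosen for transcripts of other lineages leave less room for those of hepatocytes, so lower values here may be partly set by the choice. In cholangiocyte-rich spots the calls of Igfbp2 (-0.097, adjusted p = 0.197) and Igfbp4 (-0.067, adjusted p = 0.106) were lost with total-count scaling, that of Igfbp2 also without any 1 of the 6 sections at 36 and 48 h (adjusted p up to 0.0829), and that of Igfals with the top 5% of spots (adjusted p = 0.0627). Of the 7 genes 6, 6, 5 and 6 were called in these contrasts, where over all genes 30.3% (15.2% higher and 15.2% lower), 50.8% (24.9% and 25.9%), 53.9% (25.8% and 28.1%) and 21.7% (10.4% and 11.2%) were. Igfbp7 was higher in mesenchyme-rich (log2 difference 0.49 ± 0.0708, adjusted p = 0.000145, edgeR), phagocyte-rich (0.36 ± 0.0691, adjusted p = 0.000634) and endothelium-rich spots (0.25 ± 0.0336, adjusted p = 1.12e-06). Igfbp3 was higher in mesenchyme-rich (0.50 ± 0.119, adjusted p = 0.00355) and endothelium-rich spots (0.34 ± 0.0570, adjusted p = 3.21e-05), and in cholangiocyte-rich spots (0.25 ± 0.0851, adjusted p = 0.0446), the last a call lost without any 1 of 7 of the 8 injured sections, 36 h A being the exception.

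Igfbp1 was higher in cholangiocyte-rich spots alone among the 4 contrasts (0.28 ± 0.0788, adjusted p = 0.0204), a call lost without 48 h A (adjusted p = 0.0761) and with the top 5% of spots (0.23, adjusted p = 0.0931). The cholangiocyte list holds Krt8 and Cdh1, which hepatocytes express too. At 48 h hepatocyte-low spots made up 8.05% to 34.2% of the mesenchyme-rich spots, against 0.52% to 1.49% at 0 h, so both kinds of spot overlapped. A marker-rich spot is a mixture, and these differences do not assign a gene to a cell type.

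Across the 11 sections, the genes whose log2 CPM followed each of the 7 most closely were listed as a description, over points that share time and, by the methods, mice. Igf1 was followed by Synj2bp (Pearson r 0.99), Apoo and Znrf2, Igfals by Hagh (0.93), Ugt2b34 and Hdhd2, and Igfbp2 by Ces2a (0.97), Ehhadh and Gpx1. Igfbp3 went with Sult1d1 (0.98), Lamp1 and Gdf2, and Igfbp4 with Tor1aip1 (0.97), Sec14l4 and Nfix. Igfbp7 went with Adgre1 (0.94), which encodes the macrophage antigen F4/80, Kctd12 and Vsig4, a gene of liver macrophages. Igfbp1 had the least close companions, Tgfa (0.89), Ifngr2 and Qk.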

How the data were processed

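Groups and times came from the sample labels. Per the labels and methods, the authors aligned reads to mm10 with Space Ranger 1.0.0 (Seurat 4.1.1 is also named) and deposited raw UMI counts for 31053 genes and 4992 spots per section, with a position file whose tissue mask was used here. The 7 genes, the pathway list and the marker lists were chosen with earlier results of these data known.

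Spots under the mask were used where 800 or more genes were detected and mitochondrial UMIs did not exceed 20%, and their counts were summed per section (31292663 to 67045372 UMIs). Pairs of sections within a group differed by 45.8 to 246 chi-square units per degree of freedom, so none was a repeat of another. The sums were tested with edgeR 4.0.16 in R 4.3.3 (filterByExpr, TMM, robust quasi-likelihood fit over all 11 sections, time point as the only term, two-sided, Benjamini-Hochberg over all genes tested). Contrasts between spot classes used sums per section and class with the section as a block. Spot scores were means of log counts over a list, on spots thinned to 2000 UMIs. Standard errors were derived from the F statistics. The fits of section sums, of zone classes and of spot classes were tested on simulated counts, and the other steps were not.

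Named by rule were the 7 genes, the receptors and Igf2, the 10 genes of the pathway list called against 0 h with the largest change at 48 h, and the 3 genes with the highest r for each of the 7 among genes of at least 10 CPM. Alternatives were total-count scaling, DESeq2 1.42.0, no filter, all tissue spots, fits on the compared times, a replicate block, other class limits and leaving out each section. Gene positions are from GENCODE vM21 (GRCm38), matched by identifier, and all 7 genes had a RefSeq promoter window (10 windows). Protein sequences were not used here.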

Additional observations from a re-analysis of the deposited data

Results flagged for a closer look

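The portal slope of 2 genes differed between injured and uninjured sections in an interaction test that called 19.2% of all genes, 12% of them with a lower value after APAP. The central minus portal log2 difference changed by -0.22 for Igfals (adjusted p = 0.00422, edgeR) and by -0.19 for Igfbp4 (adjusted p = 0.00540). Both calls were lost with total-count scaling (-0.097 and -0.066, adjusted p = 0.217 and 0.325), and that of Igfbp4 without 0 h 4 (adjusted p = 0.0765). For Igfals all 8 injured sections were lower in central than in portal spots, as were the 3 uninjured sections.

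Spots off the tissue, which enter no comparison, held RNA of all 7 genes. As UMI share (the unit of CPM, without TMM), 4 genes at 48 h and 1 at 36 h were higher in every section of the group than in any uninjured section, where 55.2% and 44.7% of the 15236 genes with at least 10 such UMIs were too, so that 4 of 7 at 48 h is near the share of all genes. At 48 h the means were 586 for Igfbp1 (222 to 352 at 0 h), 35.2 for Igfbp3 (8.35 to 11.6 at 0 h), 336 for Igfbp7 (150.2 to 169 at 0 h) and 733 for Igfbp4 (615 to 659 at 0 h), and at 36 h the mean for Igfbp4 was 793. The median of all these genes was itself higher by 0.56 on the log2 scale at 48 h. In the other direction, Igf1, Igfals, Igfbp2, Igfbp3 and Igfbp4 at 24 h were lower in both sections than in any uninjured one (15.1% of all genes), for example Igfbp2 at 148 and 189 against 417 to 589. At 36 h the same was true of Igf1 and Igfbp2 (8.91% of all genes).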

How the results depend on the processing

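Of 1022 values recomputed for single genes, 893 kept both direction and side of the threshold, 77 lost a call, 20 gained one and 32 changed sign. Total-count scaling left 3 genes called at 24 h, 1 at 36 h and 3 at 48 h (all 3 higher at 48 h) and 0 with a changed zone slope (3 had an unadjusted p under 0.05). It turned the sign against 0 h of Igfbp1 (0.31), Igfbp4 (0.36) and Igfbp7 (0.040) at 36 h and of Igf1 (0.016) and Igfbp4 (0.050) at 48 h, of Igf1 from 24 to 36 h (0.016) and of Igfals from 36 to 48 h (0.043). Among spot contrasts it turned Igfbp4 at 0 h (0.012) and Igfbp3 after APAP (0.092) between zones, and Igfbp1 in endothelium-rich (0.047), mesenchyme-rich (0.11) and phagocyte-rich spots (0.15). With no low-count filter 3 genes were called at 48 h and Igfbp3 at 36 h was -0.022, against -0.0099 with DESeq2, which called 2 genes from 36 to 48 h. The fit on 24 and 36 h alone called 0 genes (1 had an unadjusted p under 0.05). Classes of 1 in 4 spots gave Igfbp7 a zone change of -0.0017. Leaving out 1 section gave 4 to 5 calls at 24 h, 1 to 2 at 36 h, 2 to 4 at 48 h, 1 to 2 from 24 to 36 h and 0 to 1 from 36 to 48 h. It gave 1 to 3 genes with a changed zone slope, 2 to 6 in the ring and 3 to 6 in cholangiocyte-rich spots. Signs turned within these ranges: Igfbp1 -0.86 to 0.88 at 24 h, -0.95 to 0.40 at 36 h and -1.18 to 0.74 from 24 to 36 h, Igfbp3 -0.88 to 0.56 and Igfbp4 -0.18 to 0.022 at 36 h, Igfbp7 -0.22 to 0.36 from 24 to 36 h and Igfals -0.13 to 0.072 from 36 to 48 h. The zone change of Igfbp7 was -0.055 to 0.063, and the zone difference after APAP was -0.29 to 0.071 for Igfbp3 and -0.040 to 0.082 for Igfbp2. With the section letter as a replicate block over the 8 injured sections, 1 gene (Igfbp3) was called from 24 to 36 h and 0 from 36 to 48 h, where Igfals turned to 0.10. No label says that a letter marks a shared mouse or slide. Deviations from the group mean correlated at r -0.25 to 0.29 between sections of the same letter. With 2 sections in a group these deviations mirror each other, so the values cannot decide whether a letter is shared. Where a time point keeps 1 section, that section was assumed to vary like the other groups. The causes of these shifts were not tested. Depth limited Igfbp3 at 24 h and Stc1 at 0 h.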

Other observations

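Spots rich in Igfbp1 at 48 h were set beside the levels of other genes. Counts thinned to 2000 UMIs were summed over each spot and its touching spots, and Igfbp1 was correlated with 476 genes of at least 0.5 UMIs per spot, over the 1490 to 3461 spots of each of the 4 sections. This look was chosen after the values above were seen, and overlapping sums share counts, so the coefficients are a description. The highest mean r was that of Fth1, the ferritin heavy chain (0.51, from 0.22 to 0.69 over the sections). Clu, which encodes the stress-induced chaperone clusterin, followed at 0.51 (0.40 to 0.58). The keratins Krt18 and Krt8 stood at 0.50 (0.32 to 0.62) and 0.43 (0.25 to 0.56), and the metallothionein Mt1 at 0.43 (0.22 to 0.53). The next 5 genes all encode ribosomal proteins, from Rpl21 (0.42) and Rps20 (0.41) to Rps24 (0.39), Rps27a (0.38) and Rpl23 (0.37). At the other end were mitochondrially encoded genes, led by mt-Co3 at -0.37 (-0.47 to -0.23), and the major urinary protein gene Mup20 at -0.36 (-0.44 to -0.20).

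Igfbp5 and Igfbp6, which were not called at any time, were each highest in a single section, 36 h B, at 17.1 and 17.7 CPM against at most 12.8 and 9.28 CPM in the 48 h sections. Mesothelial markers (3 genes) summed to 14.2 CPM in the same section, against at most 2.23 CPM at 0 h and 9.44 CPM at 48 h. Whether a share of liver surface bore on these values was not tested.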
